A study of Rattus norvegicus with 28 samples.

Results

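Signalling from the insulin and IGF-1 receptors was followed at the transcript level through 8 genes in INS-1, a beta cell line that was derived from a rat insulinoma and is labelled as pancreatic beta cell. The genes were the receptors Insr and Igf1r, the adaptors Irs1 and Irs2, the phosphoinositide 3-kinase (PI3K) regulatory subunit Pik3r1, the kinases Akt1 and Akt2 and the transcription factor Foxo1. They were chosen by name, with earlier results of these data known, so their shares of calls beside those of all genes are descriptions. All 8 were found among the 17455 gene symbols of the expression table, each with a single transcript. Cells were WT or carried Med14 S983A, a CRISPR knock-in that changes 1 residue of a Mediator subunit, in lines grown from single sorted cells. According to the paper, experiments were replicated in independently generated knock-in lines. The labels do not say whether these libraries came from a single line, or whether the replicates of a group differed in line. The mutation and the history of a line therefore cannot be told apart here. Both genotypes were moved to serum-free medium and were then left untreated (CON) or exposed to 10 nM Ex-4, a peptide that activates the GLP-1 receptor, for 1, 8 or 16 h. Other cells received 10 µM forskolin (FSK), a direct activator of adenylyl cyclase, for the same 3 times. This gave 14 groups of 2 libraries, 28 in all. The authors' methods speak of biological replicates, but nothing in the labels says that the 2 libraries of a group came from separate cultures. The p-values measure the spread between these libraries, which may be technical.

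Libraries held 42183630 to 91794163 fragments assigned to genes, the highest in Med14 S983A replicate 2 of the 8 h FSK group. Levels are in TPM, a share of all transcripts in a library that is corrected for transcript length. A gene was called when its log2(TPM + 1) differed between groups by over 1.5-fold at an adjusted p under 0.05 in limma, fitted over the 10275 genes that averaged 1 TPM or more. All 8 genes passed that minimum, Irs1 with a mean of only 1.5 TPM. The median change of the 10275 genes was not 0 in every comparison. It reached −0.34 on the log2 scale at 8 h of FSK in WT, −0.28 at 8 h of FSK in Med14 S983A, −0.20 at 16 h of FSK in WT and −0.16 at 16 h of Ex-4 in WT, and the changes given below are to be read against it. Of 12 beta cell markers, 11 were measured, the lowest at 13.2 TPM (Nkx6-1), and Mafa was not analysed here. Of 10 markers of other cells, 9 stayed at or below 0.925 TPM in every library. The exception was the alpha cell hormone gene Gcg, with 165 and 169 TPM in WT CON and 6.09 and 6.56 TPM in Med14 S983A CON. It had 1225 and 1345 TPM at 8 h of FSK in WT and 102 and 110 TPM in Med14 S983A, and its part in the results was not tested. In these bulk libraries fewer cells of a type and less RNA per cell cannot be told apart. Med14 itself had 21.5 and 20.3 TPM in WT CON and 19.6 and 20.3 TPM in Med14 S983A CON, and since only 1 residue was changed, its level does not check the genotype labels.

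Insulin and IGF-1 bind tyrosine kinase receptors, which phosphorylate the docking proteins IRS1 and IRS2. These recruit PI3K through its regulatory subunits, the lipid product activates AKT, and AKT phosphorylates many targets, among them FOXO1, which then leaves the nucleus. In beta cells Irs2 is known as a gene that cAMP induces through the transcription factor CREB, and loss of Irs2 in mice reduces beta cell mass. Proteins and their phosphorylation were not measured in the libraries described here.

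At CON the levels of the 8 genes ranged widely. In WT they were, in order, Akt1 at 220 TPM, Akt2 at 80.2 TPM, Irs2 at 38.0 TPM, Foxo1 at 30.1 TPM, Pik3r1 at 18.8 TPM, Igf1r at 18.3 TPM, Insr at 7.70 TPM and Irs1 at 0.865 TPM (means, n = 2). The ranges of Pik3r1 and Igf1r overlapped, and the other neighbours in this order did not. Over all 28 libraries Igf1r spanned 13.4-fold from the lowest to the highest value and Irs2 spanned 6.52-fold. Irs1 spanned 3.44-fold, Akt1 3.17-fold, Foxo1 2.40-fold and Insr 2.23-fold, while Akt2 and Pik3r1 spanned 1.63-fold and 1.59-fold. Between 109 and 502 fragments lay behind each Irs1 value, against 5250 to 40166 behind each Irs2 value.

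**Figure D1:**
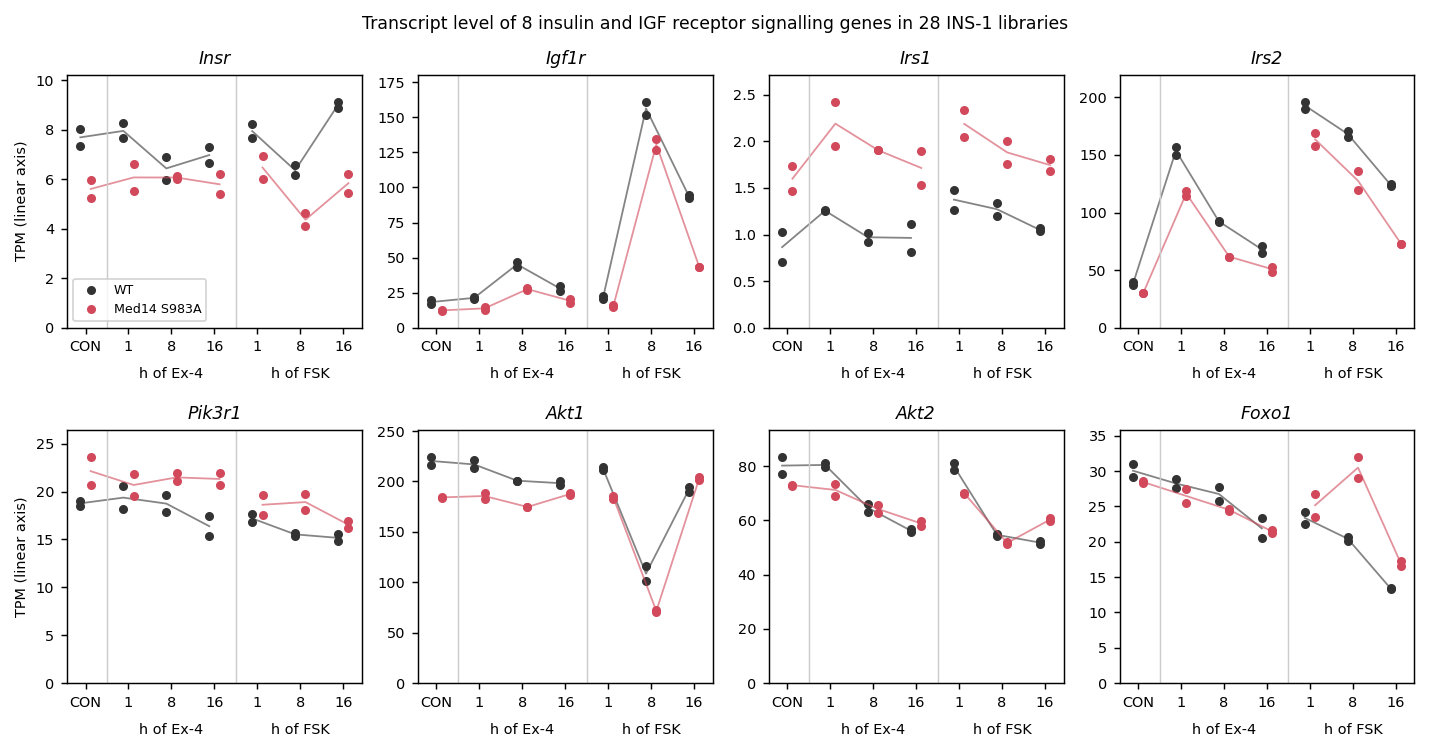
TPM (linear axis from 0) of the 8 genes in each of the 28 libraries by treatment and time, with 1 point per library and lines through the group means, black for WT and red for Med14 S983A. Irs2 was highest at 1 h, Igf1r was highest at 8 h, and Akt1 fell at 8 h of FSK.

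Of the 96 changes with treatment (8 genes in 12 comparisons with CON of the same genotype), 25 were called. Irs2 took 12 of them, Igf1r 8, Akt1 2, Foxo1 2 and Akt2 1, and none were of Irs1, Insr or Pik3r1. With Ex-4 in WT, 1, 2 and 2 of the 8 genes were called at 1, 8 and 16 h, against 2.87%, 9.60% and 11.8% of all genes tested. With FSK in WT the numbers were 1, 3 and 4 of 8, against 7.47%, 43.6% and 34.5%. In Med14 S983A, 1, 2 and 2 of 8 were called with Ex-4, against 3.04%, 6.30% and 11.9%, and 1, 3 and 3 of 8 with FSK, against 10.4%, 46.1% and 33.3%. At 8 and 16 h of FSK the share of the 8 genes was therefore near that of all genes.

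**Figure D2:**
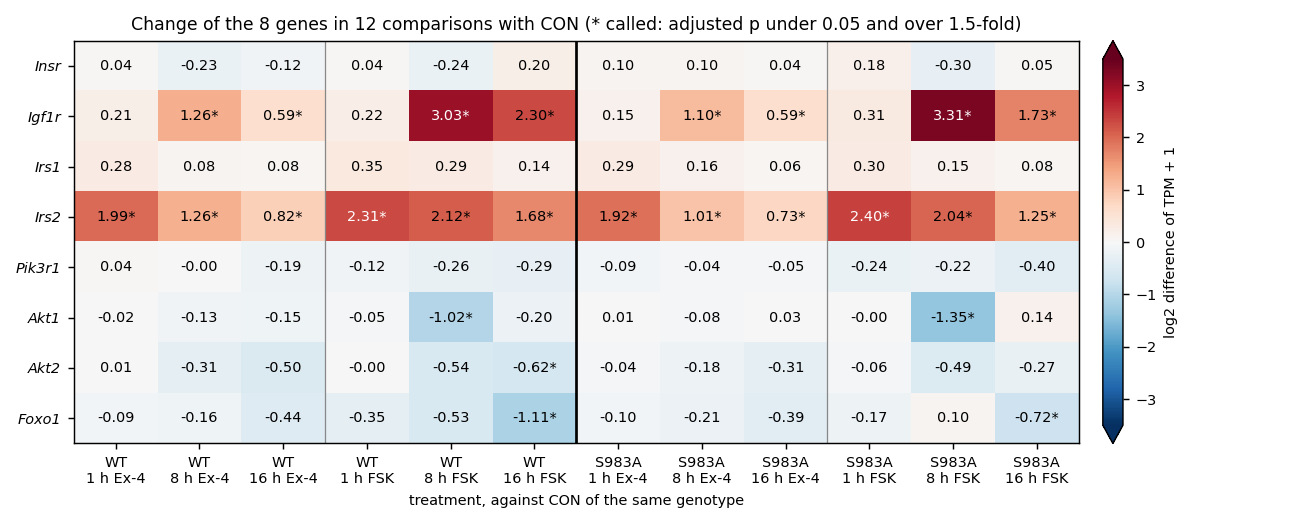
Log2 difference of TPM + 1 against CON of the same genotype for the 8 genes (rows) in 12 treatments (columns), with red for higher, blue for lower and an asterisk on the 25 called values. The row of Irs2 is called throughout, and the row of Igf1r is called at 8 and 16 h in both genotypes.

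The adaptor Irs2 (NM_001168633, rn6 chromosome 16, 83824515 to 83848569, forward strand, 6298 exonic bases) rose with both agents at every time in both genotypes. In WT CON it had 39.2 and 36.8 TPM. Ex-4 gave 150 and 157 TPM at 1 h, 91.5 and 93.0 TPM at 8 h and 64.7 and 71.3 TPM at 16 h. FSK gave 196 and 190 TPM at 1 h, 166 and 170 TPM at 8 h and 123 and 125 TPM at 16 h. No treated library came down to the CON range. The means stood at 4.04, 2.43 and 1.79 times the CON mean after 1, 8 and 16 h of Ex-4 and at 5.07, 4.42 and 3.26 times after FSK. On the log2 scale the differences with Ex-4 were 1.99, 1.26 and 0.82, and those with FSK were 2.31, 2.12 and 1.68 (each SE 0.05, largest limma adjusted p 2.37e-12).

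In Med14 S983A the same order of times was seen from a lower start. Irs2 had 30.1 and 30.2 TPM at CON. Ex-4 gave 118 and 115 TPM at 1 h, 61.6 and 61.8 TPM at 8 h and 53.0 and 48.6 TPM at 16 h. FSK gave 158 and 169 TPM at 1 h, 136 and 119 TPM at 8 h and 73.0 and 72.8 TPM at 16 h. Every treated library again lay above the CON range. The log2 differences were 1.92, 1.01 and 0.73 with Ex-4 and 2.40, 2.04 and 1.25 with FSK (each SE 0.05, largest limma adjusted p 1.7e-11). All 12 calls of Irs2 held under the 11 alternative settings and with each library left out.

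Ordered by mean level, the 14 groups ran from 193 TPM (WT, 1 h of FSK) to 30.1 TPM (Med14 S983A, CON), with both CON groups at the bottom. In such an order, libraries of neighbouring groups overlapped in 5 (Igf1r and Akt1) to 13 (Pik3r1) steps for the other members, and all genes were not counted. For Irs2 they overlapped in 2 of the 13 steps. These were WT at 8 h of FSK beside Med14 S983A at 1 h of FSK, and Med14 S983A at 8 h of FSK beside WT at 16 h of FSK. The level at 16 h was below that at 1 h in all 4 series of times. The log2 difference of 16 h against 1 h was −1.17 for Ex-4 and −0.63 for FSK in WT, and −1.18 for Ex-4 and −1.15 for FSK in Med14 S983A (each SE 0.05), and all 4 were called. The shallowest of them, FSK in WT, lay under 1.5-fold in 5 alternatives, between −0.58 (edgeR) and −0.30 (DESeq2 with ERCC size factors).

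The level of Irs2 under Ex-4 was below that under FSK in WT. The log2 difference between the agents was −0.33 at 1 h (SE 0.05, limma adjusted p 8.59e-05), short of 1.5-fold, and −0.86 at both 8 h and 16 h (SE 0.05, limma adjusted p 2.79e-13 and 3.98e-13). The libraries of the agents did not overlap at any of the 3 times. Of the 8 genes, 0, 3 and 3 were called between the agents at 1, 8 and 16 h, against 1.79%, 28.1% and 18.7% of all genes tested. Between 16 h and 1 h, 1 of 8 was called for Ex-4 and 4 for FSK in WT, against 11.3% and 32.3%. In Med14 S983A, 1 and 2 were called, against 11.6% and 35.2%.

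Other genes had group means that followed those of Irs2 closely. Over the 14 group means of log2(TPM + 1), the highest Pearson r among 8832 other genes averaging 5 TPM or more was 0.969, for Diras2, which encodes a small GTPase of the Ras family. Next came Sik1 with r = 0.962, a kinase gene known as a CREB target, then Lrrc10b with r = 0.945, Id4 with r = 0.943 and Spata2L with r = 0.938. Id4 encodes an inhibitor of helix-loop-helix transcription factors. From WT CON to WT at 1 h of FSK the mean of Diras2 went from 48.7 to 277 TPM, that of Sik1 from 3.92 to 192 TPM and that of Id4 from 45.0 to 407 TPM. With TPM scaled on the spike-in RNA, 4 of these 5 genes were again among the 5 highest, and Spata2L was sixth with r = 0.924. The r of the other 6 members above that level ran from −0.490 for Pik3r1 to 0.398 for Igf1r. These values describe 14 group means and carry no test, and the 5 named genes were picked as the highest of 8832.

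The second adaptor, Irs1 (NM_012969, rn6 chromosome 9, 88033668 to 88086488, reverse strand, 5351 exonic bases), was the lowest of the 8 genes in every group. WT CON had 1.03 and 0.705 TPM and Med14 S983A CON had 1.47 and 1.73 TPM. Its highest group, Med14 S983A after 1 h of Ex-4, had 2.43 and 1.96 TPM. Its 12 log2 differences with treatment lay between 0.06 and 0.35, and none was called. Adding 1 to values near 1 TPM shrinks a change, so these differences understate those in TPM. On recovered reads edgeR called Irs1 higher in WT at 1 h of Ex-4, by 0.63, at 1 h of FSK, by 0.81, and at 8 h of FSK, by 0.90. DESeq2 called the same 3 changes, by 0.64, 0.82 and 0.93, and 1 h of FSK in Med14 S983A, by 0.61. With ERCC size factors it called WT at 1 h and 16 h of FSK, by 0.72 and 0.66. At 8 h of FSK in WT median-centring gave 0.68, and at 1 h of FSK a pseudocount of 0.1 TPM gave 0.63, both called. The level of Irs2 was 38.3 and 52.2 times that of Irs1 in the WT CON libraries and 20.6 and 17.4 times in those of Med14 S983A. At 1 h of FSK it was 133 and 149 times in WT and 77.4 and 72.4 times in Med14 S983A.

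The receptors differed in their response. Igf1r (NM_052807, rn6 chromosome 1, 128924921 to 129207049, forward strand, 4647 exonic bases), which encodes the IGF-1 receptor, had 19.5 and 17.1 TPM in WT CON. It stayed close to that at 1 h, with 20.8 and 21.8 TPM for Ex-4 and 22.3 and 20.6 TPM for FSK. At 8 h Ex-4 gave 47.0 and 43.3 TPM and FSK gave 152 and 161 TPM. At 16 h the values were 26.4 and 29.5 TPM for Ex-4 and 92.6 and 94.8 TPM for FSK. All libraries of 8 and 16 h lay above the CON range. The mean at 8 h of FSK was 8.55 times that of CON, the largest change among the 8 genes in WT. The log2 differences at 8 and 16 h were 1.26 and 0.59 for Ex-4 and 3.03 and 2.3 for FSK (each SE 0.08, largest limma adjusted p 3.5e-07), all called, while those at 1 h were 0.21 and 0.22. The call at 16 h of Ex-4 was lost without replicate 2 of WT CON, at 0.50, or without replicate 2 of that treatment, at 0.51.

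In Med14 S983A, Igf1r had 12 and 12.6 TPM at CON, 28.2 and 26.8 TPM at 8 h of Ex-4, and 20.5 and 17.8 TPM at 16 h of Ex-4. FSK gave 135 and 127 TPM at 8 h and 43.2 and 43.4 TPM at 16 h. The treated libraries of 8 and 16 h were again all above the CON range. Log2 differences were 1.10 and 0.59 for Ex-4 and 3.31 and 1.73 for FSK at 8 and 16 h (each SE 0.08, largest limma adjusted p 2.99e-07). The 16 h Ex-4 call was lost without replicate 1 of CON, at 0.56, without replicate 1 of that treatment, at 0.50, and with spike-in scaling, at 0.49. DESeq2 with ERCC size factors lost this call too, at 0.53. In WT the level under Ex-4 was below that under FSK by 1.77 at 8 h and by 1.71 at 16 h on the log2 scale (SE 0.08, largest limma adjusted p 4.61e-16).

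Insr (NM_017071, rn6 chromosome 12, 1682527 to 1816414, reverse strand, 5356 exonic bases) encodes the insulin receptor. It had 8.04 and 7.35 TPM in WT CON, and its lowest and highest groups in WT were 8 h of FSK, with 6.16 and 6.57 TPM, and 16 h of FSK, with 8.89 and 9.14 TPM. Med14 S983A had 5.97 and 5.25 TPM at CON and the lowest values at 8 h of FSK, with 4.63 and 4.10 TPM. The 12 differences lay between −0.30 and 0.20 on the log2 scale and none was called. DESeq2 with ERCC size factors gave 0.61 at 16 h of FSK in WT, past 1.5-fold. The ratio of Igf1r to Insr, taken within a library and per length, was 2.42 and 2.33 in WT CON, 24.6 and 24.5 at 8 h of FSK and 10.4 and 10.4 at 16 h of FSK. For Med14 S983A it was 2.01 and 2.40 at CON, 29.1 and 30.9 at 8 h of FSK and 7.90 and 6.98 at 16 h of FSK.

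**Figure D3:**
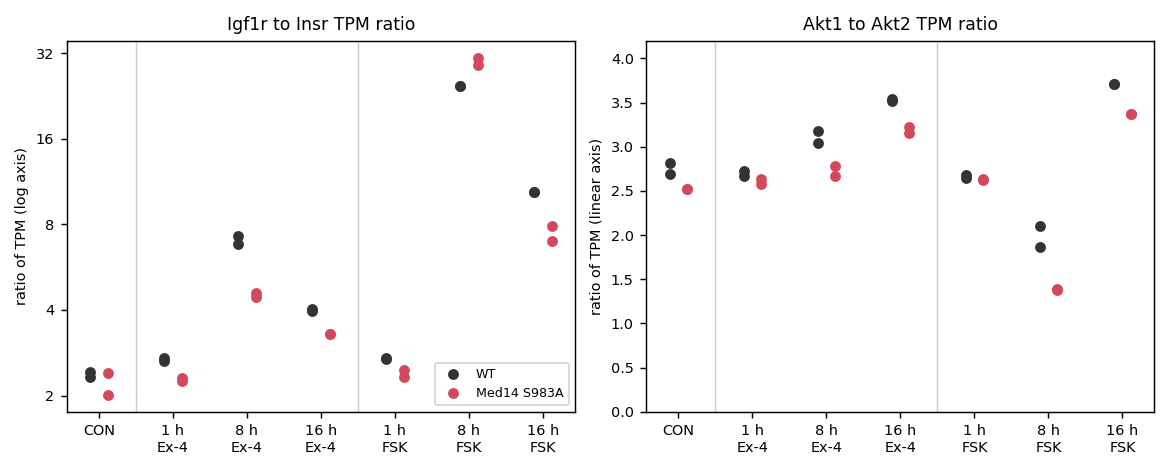
Ratio of Igf1r to Insr TPM (left, log axis) and of Akt1 to Akt2 TPM (right, linear axis from 0) in each library, by treatment, with black points for WT and red points for Med14 S983A. The receptor ratio peaked at 8 h of FSK, at 24.5 or more in each library, and the kinase ratio was lowest there.

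The promoters of both receptor genes are shown because the receptors differed in response. Each sequence is the 250 bases before the transcription start in the RefSeq annotation of GRCr8, in the direction of transcription. The capitals mark any match, on either strand, to the cAMP response element TGACGTCA, its core TGACG, which is part of it, or the FOXO site TGTTTAC.
Igf1r promoter (chr1:130959747-130959996, forward strand): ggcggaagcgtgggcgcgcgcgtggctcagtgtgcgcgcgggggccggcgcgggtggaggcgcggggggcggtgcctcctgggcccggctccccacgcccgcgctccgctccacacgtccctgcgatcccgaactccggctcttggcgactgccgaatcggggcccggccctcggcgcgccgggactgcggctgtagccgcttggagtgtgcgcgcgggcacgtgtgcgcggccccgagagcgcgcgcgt
Insr promoter (chr12:6128804-6129053, reverse strand): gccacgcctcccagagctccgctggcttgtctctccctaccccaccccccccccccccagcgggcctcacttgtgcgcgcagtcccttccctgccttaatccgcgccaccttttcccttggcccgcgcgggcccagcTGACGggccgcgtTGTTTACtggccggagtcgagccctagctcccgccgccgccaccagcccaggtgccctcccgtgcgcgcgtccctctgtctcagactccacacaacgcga
The Igf1r window held none of the 3 motifs and was 79.6% G and C. The Insr window was 71.2% G and C and held TGACG, starting 113 bases before the transcription start, and TGTTTAC, starting 100 bases before it. Of 33469 promoter windows of the same length, 18.2% held TGACG, 3.21% held TGTTTAC and 1.59% held TGACGTCA, and the median share of G and C was 51.2%. A promoter entry was found for 7 of the 8 genes, all but Irs2. The windows of Irs1, Pik3r1, Akt1, Akt2 and Foxo1 held none of the 3 motifs, which says only that those letters are not in these windows.

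Pik3r1 (NM_013005, rn6 chromosome 2, 31746365 to 31816385, reverse strand, 2146 exonic bases) encodes the p85 alpha regulatory subunit of PI3K. It moved least of the 8 genes, from 14.8 TPM in a library of WT at 16 h of FSK to 23.6 TPM in a library of Med14 S983A CON. WT CON had 18.5 and 19 TPM and Med14 S983A CON had 23.6 and 20.7 TPM. The 12 differences with treatment ran from −0.40 to 0.04 on the log2 scale and none was called.

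Akt1 and Akt2 encode kinases activated downstream of PI3K, and both had their lowest levels under FSK. Akt1 (NM_033230, rn6 chromosome 6, 137219131 to 137236201, reverse strand, 1581 exonic bases) had 224 and 216 TPM in WT CON, 116 and 101 TPM at 8 h of FSK and 190 and 194 TPM at 16 h of FSK. Med14 S983A had 183 and 185 TPM at CON, 72.1 and 70.8 TPM at 8 h of FSK and 204 and 202 TPM at 16 h of FSK. In both genotypes the libraries of 8 h of FSK stood below all others. The log2 difference from CON was −1.02 in WT (SE 0.04, limma adjusted p 2.91e-17) and −1.35 in Med14 S983A (SE 0.04, limma adjusted p 6.37e-20). Against the median shifts of all genes at that time, −0.34 and −0.28, both falls remained past 1.5-fold. Ex-4 gave no call of Akt1, with 201 TPM in both WT libraries at 8 h, and the difference between the agents at 8 h was 0.88 (SE 0.04, limma adjusted p 1.5e-15).

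Akt2 (NM_017093, rn6 chromosome 1, 84411726 to 84450162, forward strand, 1957 exonic bases) was called in 1 of the 12 comparisons with CON. WT CON had 83.3 and 77.0 TPM, 16 h of Ex-4 had 55.7 and 56.6 TPM and 16 h of FSK had 51.2 and 52.4 TPM. Med14 S983A had 72.7 and 73.2 TPM at CON, 59.6 and 58.0 TPM at 16 h of Ex-4 and 60.7 and 59.9 TPM at 16 h of FSK. The 16 h libraries lay below the CON range in all 4 cases. Only the change at 16 h of FSK in WT was called, at −0.62 (SE 0.04, limma adjusted p 6.11e-13). It was −0.38 with each library centred on its median, −0.23 with spike-in scaling and −0.44 in edgeR. In DESeq2 it was −0.41, or −0.25 with ERCC size factors, and without replicate 1 of WT CON it was −0.56. None of these reached 1.5-fold. Between 16 h and 1 h of FSK in WT, Akt2 was lower by 0.62 (SE 0.04, limma adjusted p 7.48e-13), and this call was lost in 5 alternatives, with values from −0.57 in edgeR to −0.29 with spike-in scaling. The Akt1 to Akt2 ratio was 2.69 and 2.81 in WT CON, 2.11 and 1.87 at 8 h of FSK and 3.71 in both libraries of 16 h of FSK. In Med14 S983A it was 2.52 and 2.53 at CON, 1.38 in both libraries at 8 h of FSK and 3.37 in both at 16 h.

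Foxo1 (NM_001191846, rn6 chromosome 2, 141451234 to 141527016, forward strand, 2555 exonic bases) encodes a transcription factor held out of the nucleus by AKT. In WT it had 31.0 and 29.1 TPM at CON and 22.5 and 24.2, 20.1 and 20.7, and 13.4 and 13.4 TPM after 1, 8 and 16 h of FSK. Ex-4 gave 27.6 and 28.9, 25.8 and 27.7, and 20.5 and 23.3 TPM at the same times. Every treated library was below the CON range. The change at 16 h of FSK was −1.11 on the log2 scale (SE 0.07, limma adjusted p 5.98e-14), the only called one in WT, and the change at 16 h of Ex-4 was −0.44 (SE 0.07, limma adjusted p 2.72e-06), short of 1.5-fold. Ex-4 and FSK differed by 0.67 at 16 h (SE 0.07, limma adjusted p 2.27e-09), and this call was lost without replicate 2 of WT at 16 h of Ex-4, at 0.58. Between 16 h and 1 h of FSK the difference was −0.76 (SE 0.07, limma adjusted p 1.12e-10), and it was −0.45 with spike-in scaling and −0.48 in DESeq2 with ERCC size factors, both short of 1.5-fold.

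In Med14 S983A the course of Foxo1 under FSK was another one. It had 28.5 and 28.4 TPM at CON, 23.5 and 26.8 TPM at 1 h, 32 and 29 TPM at 8 h and 16.6 and 17.2 TPM at 16 h. The 8 h libraries lay above both CON libraries, and the 16 h libraries lay below them. The change at 8 h was 0.10 (SE 0.07, limma adjusted p 0.18) and that at 16 h was −0.72 (SE 0.07, limma adjusted p 3.22e-10). The 16 h call was lost with spike-in scaling, at −0.49, with median-centring, at −0.57, and in DESeq2 with ERCC size factors, at −0.52. At 16 h of Ex-4 the values were 21.7 and 21.2 TPM, a log2 difference of −0.39 (SE 0.07, limma adjusted p 1.58e-05).

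The difference between genotypes in the response was tested as an interaction, the change in Med14 S983A minus that in WT. Of the 48 interactions of the 8 genes, 1 was called. This was Foxo1 at 8 h of FSK, at 0.63 (SE 0.09, limma adjusted p 4.15e-06), beside changes of −0.53 in WT and 0.10 in Med14 S983A. It was 0.58 with median-centring, 0.52 with spike-in scaling and 0.56 without the first replicate of the treated Med14 S983A group, none of which reached 1.5-fold, and 0.70 without the deeper replicate 2 of that group. With Ex-4, 0 of 8 were called at 1, 8 and 16 h, against 0.672%, 2.77% and 7.24% of all genes tested. With spike-in scaling the last share was 17.9%. With FSK, 0, 1 and 0 of 8 were called, against 1.64%, 13.9% and 17%.

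Interactions of other members at 16 h of FSK fell below the fold minimum. That of Igf1r was −0.56 (SE 0.11, limma adjusted p 8.64e-05). It passed 1.5-fold in edgeR, at −0.65, with median-centring, at −0.66, and with spike-in scaling, at −0.71. In DESeq2 it was −0.64, or −0.69 with ERCC size factors, both called. It also passed without replicate 1 of either CON group, at −0.65 in WT and −0.60 in Med14 S983A. That of Irs2 was −0.43 (SE 0.08, limma adjusted p 3.32e-05), with means 3.26 times CON in WT and 2.42 times CON in Med14 S983A, and lay between −0.58 and −0.43 in the alternative settings. For Irs2 with Ex-4 the interactions were −0.07, −0.25 and −0.09 at 1, 8 and 16 h (each SE 0.08), and that at 8 h had a limma adjusted p of 0.0238. Akt1 and Akt2 had interactions of 0.34 and 0.35 at 16 h of FSK (SE 0.06, limma adjusted p 3.55e-05 and 1.76e-05), and Akt1 had −0.34 at 8 h of FSK (SE 0.06, limma adjusted p 4.6e-05). Without a fold minimum 11 of the 48 interactions passed. Of all 10275 genes tested, 159, 1910 and 4317 then passed at 1, 8 and 16 h of Ex-4. With FSK 600, 5508 and 5954 passed.

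At CON, 0 of the 8 genes were called between the genotypes, against 19.4% of all genes tested. Without a fold minimum 7 of 8 passed in limma, beside 6802 of all 10275 genes tested. Igf1r was lower in Med14 S983A by 0.53 on the log2 scale (SE 0.08, limma adjusted p 1.14e-06), Insr by 0.40 (SE 0.09, limma adjusted p 0.000598), Irs2 by 0.32 (SE 0.05, limma adjusted p 9.62e-06), Akt1 by 0.26 (SE 0.04, limma adjusted p 8.74e-06) and Akt2 by 0.13 (SE 0.04, limma adjusted p 0.00654). Pik3r1 was higher by 0.22 (SE 0.08, limma adjusted p 0.0136), and the difference of Foxo1 was −0.08 (SE 0.07, limma adjusted p 0.317). Spike-in scaling moved the median of all genes from −0.07 to 0.13 in this comparison. On that scale the differences were −0.34 for Igf1r (limma adjusted p 0.00434), −0.22 for Insr (limma adjusted p 0.112), −0.12 for Irs2 (limma adjusted p 0.311), −0.05 for Akt1 (limma adjusted p 0.700) and 0.42 for Pik3r1 (limma adjusted p 0.000468). Those of Akt2 and Foxo1 changed sign, to 0.07 (limma adjusted p 0.574) and 0.13 (limma adjusted p 0.339). Without replicate 2 of WT CON the difference of Igf1r was −0.62. Irs1 was higher by 0.48 (SE 0.10, limma adjusted p 0.000207), and its difference passed 1.5-fold in edgeR, at 1.00, in DESeq2, at 0.98, with a pseudocount of 0.1 TPM, at 0.83, and without replicate 1 of WT CON, at 0.61.

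Genes next to the members in rn6 order also differed between the genotypes. The 50 tested genes nearest to Irs1, 25 on each side between 82373950 and 95302822 of chromosome 9, had a median difference of 0.83, and 48 of them were higher in Med14 S983A. Their quartiles were 0.65 and 1.01, beside 0.48 for Irs1 on the same scale, where adding 1 TPM shrinks a gene as low as Irs1. The medians beside Igf1r, Akt1 and Irs2 were −0.23, −0.22 and −0.21, in the direction of the gene itself. With up to 10 genes on each side the median beside Igf1r was −0.48 (20 genes) and that beside Irs2 was −0.11 (15 genes). Beside Insr, Pik3r1, Foxo1 and Akt2 the medians were −0.08, −0.10, −0.07 and 0.00. The median over all genes was −0.07, and the part of the neighbourhood in the members' differences was not tested.

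**Figure D4:**
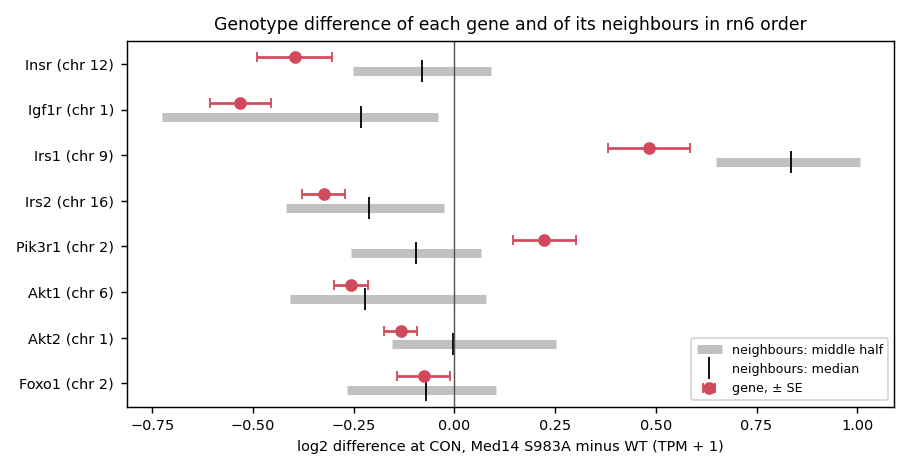
Log2 difference at CON, Med14 S983A minus WT, of each gene (red point with its SE) and of up to 25 tested genes on each side of it on its chromosome (black bar at the median, grey bar from the first to the last quartile). Around Irs1 the neighbours had a median of 0.83, while the other medians lay between −0.23 and 0.00.

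Beyond the 8 genes, 54 other genes of the pathway were listed by role, and 45 of them passed the minimum of 1 TPM. The list, too, was made with earlier results of these data known. In WT, 1 rose and 2 fell at 1 h of Ex-4, 1 rose and 6 fell at 8 h and 2 rose and 8 fell at 16 h. With FSK, 1 rose and 2 fell at 1 h, 5 rose and 15 fell at 8 h and 4 rose and 10 fell at 16 h. Of all genes tested, 180 rose and 115 fell at 1 h of Ex-4 in WT. The numbers were 371 and 615 at 8 h and 363 and 851 at 16 h. With FSK, 260 of all genes rose and 508 fell at 1 h, 901 and 3579 at 8 h and 1062 and 2478 at 16 h. The split within the list depended on the scaling. At 16 h of Ex-4 it was 2 higher and 2 lower of the 45 with either median-centring or spike-in scaling. Of all 10275 genes, 1072 were called with the first and 1270 with the second, so the excess of the list in the share given below depended on the scaling. At 16 h of FSK it was 6 higher and 8 lower with median-centring and 11 higher and 7 lower with spike-in scaling, and at 8 h of FSK it was 10 and 10 with median-centring. With Ex-4 in WT, 6.67%, 15.6% and 22.2% of the list were called at 1, 8 and 16 h. The shares of all genes were 2.87%, 9.60% and 11.8%. With FSK in WT, 6.67%, 44.4% and 31.1% of the list were called, against 7.47%, 43.6% and 34.5% of all genes. The list's median log2 changes at 1 h of Ex-4, 16 h of Ex-4 and 16 h of FSK were −0.06, −0.20 and −0.20. Those of all genes were −0.06, −0.16 and −0.20. At CON, 4 were higher and 3 lower in Med14 S983A, or 15.6% against 19.4%. In the interaction at 16 h of Ex-4, 3 were higher and 1 lower, or 8.89% against 7.24%, while 1 was higher and 4 were lower with spike-in scaling.

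Among 13 tested inhibitors of the pathway, Trib3 and Pik3ip1 were called in all 12 comparisons with CON, in opposite directions. Trib3 encodes a pseudokinase that binds AKT. It had 1.60 and 2.3 TPM in WT CON, 4.34 and 3.39 TPM at 1 h of Ex-4, 8.32 and 8.81 TPM at 16 h of Ex-4 and 90.9 and 95.9 TPM at 16 h of FSK. In Med14 S983A it had 7.51 and 8.27 TPM at CON, 86.5 and 87.0 TPM at 16 h of Ex-4 and 142 and 146 TPM at 16 h of FSK. In both genotypes the treated libraries lay above those of CON. Its log2 difference was 0.73 at 1 h of Ex-4, 1.71 at 16 h of Ex-4 and 5.01 at 16 h of FSK in WT (each SE 0.09, largest limma adjusted p 1.73e-06). At 1 h of Ex-4 the call was lost without replicate 1 of WT CON, at 0.55, or without replicate 1 of that treatment, at 0.58. Trib3 was higher in Med14 S983A at CON by 1.60 (SE 0.09, limma adjusted p 8.92e-14), and its interaction was 1.60 at 16 h of Ex-4 (SE 0.13, limma adjusted p 8.82e-10) and −0.98 at 16 h of FSK (SE 0.13, limma adjusted p 8.94e-07). At 16 h of Ex-4 the interaction was smaller in edgeR, at 1.25, with spike-in scaling, at 1.23, and in DESeq2 with ERCC size factors, at 0.92, each called. Adding 1 TPM shrinks changes from the low level of Trib3 in WT CON.

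Pik3ip1, whose product restrains the catalytic subunit of PI3K, fell from 6.95 and 6.09 TPM in WT CON to 3.41 and 3.74 TPM at 1 h of Ex-4, 1.76 and 1.74 TPM at 16 h of Ex-4 and 0.447 TPM in both libraries of 16 h of FSK. The log2 differences were −0.71, −1.45 and −2.38 (each SE 0.09, largest limma adjusted p 1.4e-06), and the last was −3.66 in edgeR. In Med14 S983A it was 5.93 and 5.98 TPM at CON and 0.541 and 0.644 TPM at 16 h of FSK. The treated libraries did not reach the CON range in either genotype. Of the other inhibitors, Grb10, an adaptor that binds the receptors, rose from 0.247 and 0.324 TPM to 1.31 and 1.26 TPM at 16 h of FSK in WT, by 0.83 on the log2 scale of TPM + 1 and by 2.35 in edgeR. It was higher by 0.98 in Med14 S983A at CON (SE 0.08, limma adjusted p 2.35e-11), where it had 1.51 and 1.56 TPM, and by 2.51 in edgeR. The phosphatase gene Ptpn1, whose product dephosphorylates the insulin receptor, was lower there by 0.89 (SE 0.06, limma adjusted p 4.71e-13), with 37.2 and 38.5 TPM against 76.0 and 66.5 TPM in WT.

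Of the 5 tested ligands and receptors, Ins1 and Ins2 encode insulin itself and are close copies, so that their reads may be split uncertainly. Ins1 rose in WT by 0.77 at 16 h of Ex-4 (SE 0.05, limma adjusted p 9.7e-12) and by 0.77 at 16 h of FSK, and its interaction at 16 h of Ex-4 was −0.62 (SE 0.08, limma adjusted p 6.48e-07), or −0.56 without replicate 2 of Med14 S983A CON and −1.07 with spike-in scaling. Ins2 was higher in Med14 S983A at CON by 3.57 (SE 0.06, limma adjusted p 2.25e-25), with 32620 and 37516 TPM against 2885 and 2991 TPM. The receptor gene Insrr, a relative of Insr that senses alkaline pH, fell from 5.90 and 5.66 TPM in WT CON to 3 and 3.18 TPM at 16 h of Ex-4 and to 0.119 and 0.0730 TPM at 16 h of FSK. Its log2 differences were −0.73 and −2.63 (each SE 0.08, largest limma adjusted p 2.57e-08), and the first was −0.46 with spike-in scaling, short of 1.5-fold. At levels near 0.1 TPM the pseudocount shrinks the second, which was −5.72 in edgeR.

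Of the 6 tested adaptors, Sh2b2, whose product binds the activated insulin receptor, fell from 29.8 and 27.3 TPM in WT CON to 12.7 and 13.1 TPM at 16 h of Ex-4 and 6.75 and 6.82 TPM at 16 h of FSK. It was lower at CON in Med14 S983A, with 15.1 and 16.6 TPM, and had 12.8 and 10.9 TPM at 16 h of Ex-4. The interaction at 16 h of Ex-4 was 0.70 (SE 0.10, limma adjusted p 4.02e-06) but 0.28 with spike-in scaling. Of the 4 tested PI3K subunits, the regulatory subunit Pik3r3 had 13.8 and 12.2 TPM in WT CON and 8.11 and 8.31 TPM at 16 h of Ex-4, against 7.38 and 6.41 TPM and 6.98 and 6.66 TPM in Med14 S983A. Its interaction at 16 h of Ex-4 was 0.59 (SE 0.12, limma adjusted p 0.000495), 0.19 with spike-in scaling and below 1.5-fold without any of 4 single libraries, WT CON replicate 1, WT 16 h Ex-4 replicate 1, Med14 S983A CON replicate 2 and Med14 S983A 16 h Ex-4 replicate 1, with values from 0.50 to 0.57.

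Of the 8 tested kinases, Sgk1, a kinase activated by PI3K signals, fell at 1 h of Ex-4 in WT from 11.8 and 11.7 TPM to 7.46 and 7.08 TPM, by 0.62 (SE 0.07, limma adjusted p 5.13e-07), or by 0.55 with median-centring, short of 1.5-fold. Mtor, the catalytic core of the mTOR complexes, was higher in Med14 S983A at CON by 1.01 (SE 0.06, limma adjusted p 2.06e-13), with 24.9 and 25.1 TPM against 11.8 and 12.2 TPM.

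**Figure D5:**
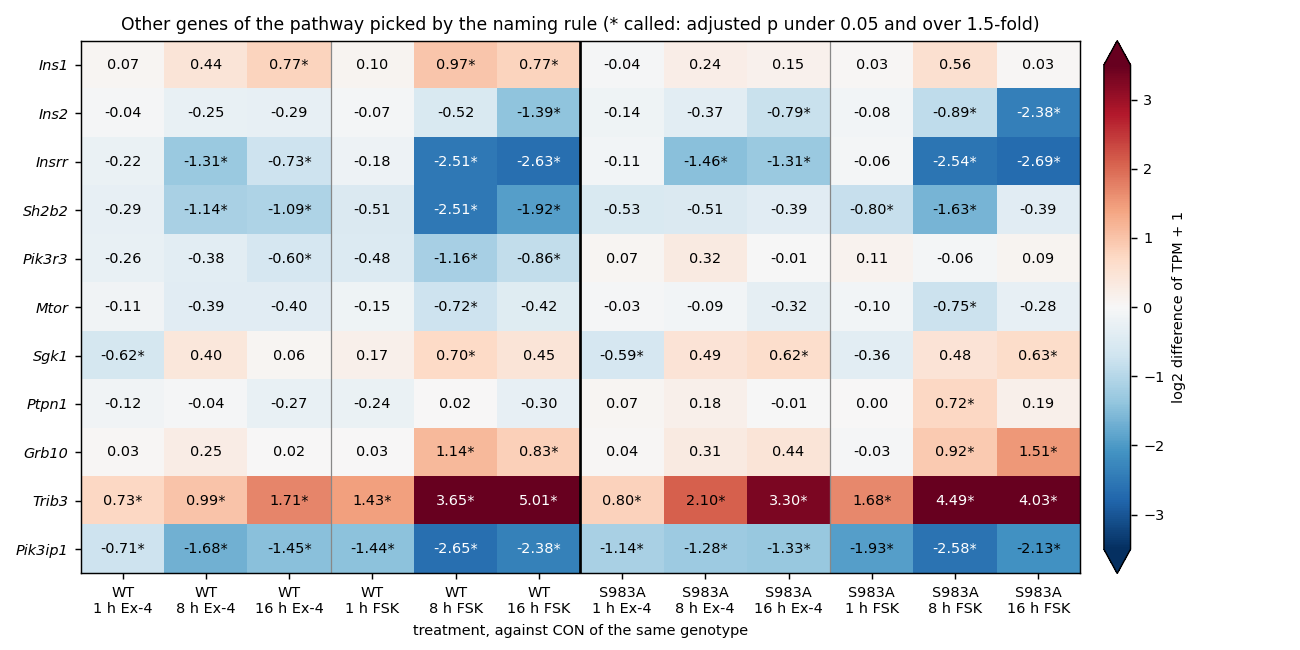
Log2 difference of TPM + 1 against CON of the same genotype for 11 other pathway genes named by rule (rows) in 12 treatments (columns), with red for higher, blue for lower and an asterisk on called values. Trib3 is higher and Pik3ip1 is lower in every column.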

How the data were processed

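Bulk RNA-seq was measured in 28 INS-1 libraries, grouped by the genotype, treatment and hours in the sample titles. Library numbers in the table's column names differ from those in the labels, so columns were matched by genotype, treatment, hours and replicate. The authors spiked ERCC RNA into total RNA, aligned paired reads to rn6 with STAR 2.5.3a and computed TPM over RefSeq exons with HOMER 4.11.1. The deposited TPM values are not scaled on the spike-in RNA. The table's length column holds exonic bases per transcript, as deposited (score). The deposited counts cover the 92 ERCC sequences alone. The authors' DESeq2 1.24.0 calls with ERCC size factors need gene counts, so limma 3.58.1 in R 4.3.3 was fitted here instead to log2(TPM + 1), with the thresholds of the study.

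The fit held a mean for each of 14 groups on 14 residual degrees of freedom and 26 contrasts, with eBayes (trend), two-sided tests and Benjamini-Hochberg adjustment per contrast over 10275 genes. The transcript with the highest mean TPM stood for a symbol. Reads were recovered from TPM and length. Of 164194 low values, 100% were whole multiples of 0.5 fragments, where 23.2% would be by chance. The tolerance was 0.05 of a step plus the rounding of TPM. Of 163340 values, 55.2% were whole multiples of 1 fragment, where 16.9% would be by chance. The recovered reads ranged from 42183630 to 91794163 fragments per library, and Irs1 had as few as 109. edgeR 4.0.16 and DESeq2 1.42.0 on these reads were alternatives. On data simulated for WT at 16 h of Ex-4 against CON (10275 genes), limma recovered 94% of 2-fold and 99% of 3-fold changes. The simulation changed 100 genes at each fold and had no shift of all genes. It therefore cannot speak to calls that depend on the scaling. Replicates of a group had r of 0.998 to 0.999 and differed by more than counting noise (chi-square per degree of freedom 2.46 to 9.79).

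The members and lists were chosen with earlier results of these data known. Named genes were the 8 members, the 5 genes with the highest r to Irs2, and in 5 comparisons up to 5 called pathway genes with the largest change, 1 of which is not reported here. Protein sequences were not analysed here.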

Additional observations from a re-analysis of the deposited data

Results flagged for a closer look

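The response of Foxo1 to 8 h of FSK differed between the genotypes by a test of the difference itself, with an interaction of 0.63 on the log2 scale (SE 0.09, limma adjusted p 4.15e-06). Foxo1 went from 31.0 and 29.1 TPM to 20.1 and 20.7 TPM in WT and from 28.5 and 28.4 TPM to 32 and 29 TPM in Med14 S983A. The value moved between 0.56 and 0.70 when a library was left out. It fell short of 1.5-fold at 0.56, without replicate 1 of the treated Med14 S983A group, and at 0.58 with median-centring, 0.52 with spike-in scaling and 0.57 in DESeq2 with ERCC size factors. At that time 13.9% of all genes tested had a called interaction.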

How the results depend on the processing

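Of the 208 values of the 8 genes, 40 were called, and none of these changed sign under the 11 alternative settings or with any of the 28 libraries left out. For 31 of the 40 the call held throughout, while 9 lost it somewhere, 32 times in all, as given beside the results. Gains came to 107, of which 73 arose without a fold minimum and 18 of the other 34 were of Irs1. Without a fold minimum the calls were 61 of 96 with treatment, 7 of 8 between genotypes at CON and 11 of 48 interactions. Between Ex-4 and FSK there were 13, and between 16 h and 1 h there were 21. With the minimum these counts were 25, 0, 1, 6 and 8. Of all 10275 genes, 2592 to 8690 passed without a fold minimum in a treatment comparison and 6802 at CON. An interaction had 159 to 5954, a comparison of agents 1368 to 7907 and one of times 6218 to 8277. The 1 call between genotypes at CON with a pseudocount of 0.1 TPM, edgeR, DESeq2 and DESeq2 with ERCC size factors was Irs1. The interactions called were 2 with edgeR and 2 with DESeq2. With a library left out, calls ranged from 24 to 25 with treatment, 0 to 1 at CON, 0 to 2 for interactions, 5 to 6 between agents and 8 to 9 between times. Where this left a group with 1 library, that library was assumed to vary like the other groups. Irs1 could not be tested at a mean of at least 5 TPM, and no member had a further transcript to try. The replicate numbers did not pair the libraries (correlations of −0.280 to 0.283 over 91 pairs of groups, 17 of them over 0.1), and with the replicate block the calls were again 25, 0, 1, 6 and 8.

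Scaling on the spike-in RNA moved the median change of all genes from −0.16 to 0.15 at 16 h of Ex-4 and from −0.20 to 0.16 at 16 h of FSK in WT, from −0.28 to −0.36 at 8 h of FSK and from 0.04 to 0.46 between 16 h and 1 h of FSK in Med14 S983A, and from 0.09 to −0.33 in the interaction at 16 h of Ex-4. The share of all genes called moved by over 1.5 times with it at 1 h of FSK in Med14 S983A, from 10.4% to 17.5%, and in the interactions at 1 h of FSK, from 1.64% to 3.16%, and at 16 h of Ex-4, from 7.24% to 17.9%. The same settings were run for the called values of 14 other pathway genes after the data were seen. Of 145 such values 30 lost the call or changed sign somewhere. Grb10 at 16 h of FSK had an interaction of 0.68 that turned to −0.24 with edgeR, −0.23 with DESeq2 and −0.30 with DESeq2 and ERCC size factors. Irs1, with as few as 109 fragments in a library, moved with the pseudocount and the count models. Grb10 lay at 0.247 and 0.324 TPM in WT CON, where a pseudocount of 1 TPM weighs most, and with 0.1 TPM the value was 0.10.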

Other observations

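Some further genes of the pathway list were picked for description after their values were seen. Socs3, which encodes a feedback inhibitor of cytokine and insulin receptors, had 3.57 and 3.27 TPM in WT CON and 3.19 and 3.79 TPM in Med14 S983A CON. At 8 h of FSK it had 5.21 and 5.37 TPM in WT and 13.6 and 11.9 TPM in Med14 S983A, and at 16 h it had 5.25 and 6.22 TPM in WT and 12.2 and 12 TPM in Med14 S983A. Its interaction was 1.11 at 8 h (SE 0.16, limma adjusted p 2.34e-06) and 0.94 at 16 h (SE 0.16, limma adjusted p 1.71e-05), called in each setting tried.

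Of the other FOXO genes, Foxo3 and Foxo4 were tested, and both fell at 8 h of FSK in both genotypes, where 43.6% of all genes were called in WT and 46.1% in Med14 S983A. Foxo3 went from 13.2 and 11.1 TPM to 4.21 and 5.26 TPM in WT and from 12 and 12.3 TPM to 6.36 and 6.09 TPM in Med14 S983A. Its log2 differences were −1.20 and −0.87 (SE 0.09), the second falling short of 1.5-fold with median-centring, at −0.53. Foxo4 went from 18 and 17.4 TPM to 4.79 TPM in both libraries in WT and from 20.6 and 21.6 TPM to 6.79 and 6.84 TPM in Med14 S983A. Its log2 differences were −1.69 and −1.5 (SE 0.06).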
